A study of Mus musculus with 8 samples.

Results

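Transcripts of 10 genes that mark natural killer (NK) cells or encode cytotoxic effector molecules were followed in mouse whole blood on one-colour Affymetrix arrays, in mice given cobalt chloride (CoCl2) and in control mice. Each gene was represented by 1 probe set, chosen by its ID, so the set held 10 of the 45101 probe sets in the deposited value table. The gene of each probe set came with the list of IDs, since the deposited files give no gene names. The CoCl2 group had 4 arrays and the control group 4 arrays. CoCl2 is used to imitate hypoxia, since cobalt keeps hypoxia-inducible factors from being broken down while oxygen is normal. The labels put the dose at 200 ng CoCl2 per 100 ml and day, with blood taken from the vena cava at 15 days and RNA made from 100 µl of it. They call the control mice chamber controls, describe the treatment with the CoCl2 samples only, and there place both groups at room conditions. Strain, sex and age are not given in the labels used here, and neither is whether each array came from its own mouse, so the p-values reflect variation between arrays, which may be technical.

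NK cells and cytotoxic CD8 T cells kill target cells by releasing granules that hold perforin, which opens the target's membrane, and granzymes, serine proteases that enter and trigger death. NK cells read their targets through activating and inhibitory receptors, many of them C-type lectins encoded together in the NK gene complex of mouse chromosome 6. T-bet is a transcription factor of these cells, and the interleukin-15 signal that maintains them passes through the interleukin-2 receptor beta chain. In whole blood these cells are a minority among leukocytes, which are themselves greatly outnumbered by red cells.

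Of the 10 genes, Gzmb, Klrd1 and Klrb1c were higher in the CoCl2 group and 0 were lower at an adjusted p under 0.05. The granule protease gene Gzmb differed most, 3.52-fold higher with CoCl2, and it alone changed by at least 2-fold. The NK receptor genes Klrd1 and Klrb1c were 1.77-fold and 1.64-fold higher. The 3 genes that passed are 3 of 9 tested, since Il2rb lay under the filter on low values. Prf1 is counted among the 9, though it reached the filter only through its CoCl2 arrays. In the same fit 28.6% of all 22519 tested probe sets were called higher, 16.5% lower and 45.1% in either direction, so the share among the 9 genes was near that of the array as a whole. The median log2 difference, CoCl2 minus control, was 0.47 over the 10 genes and 0.19 over all tested probe sets. A positive difference was found in 9 of the 10 genes, and in 60.2% of tested probe sets. In whole-blood RNA, more cells of a type and more RNA per cell cannot be told apart.

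**Figure D1:**
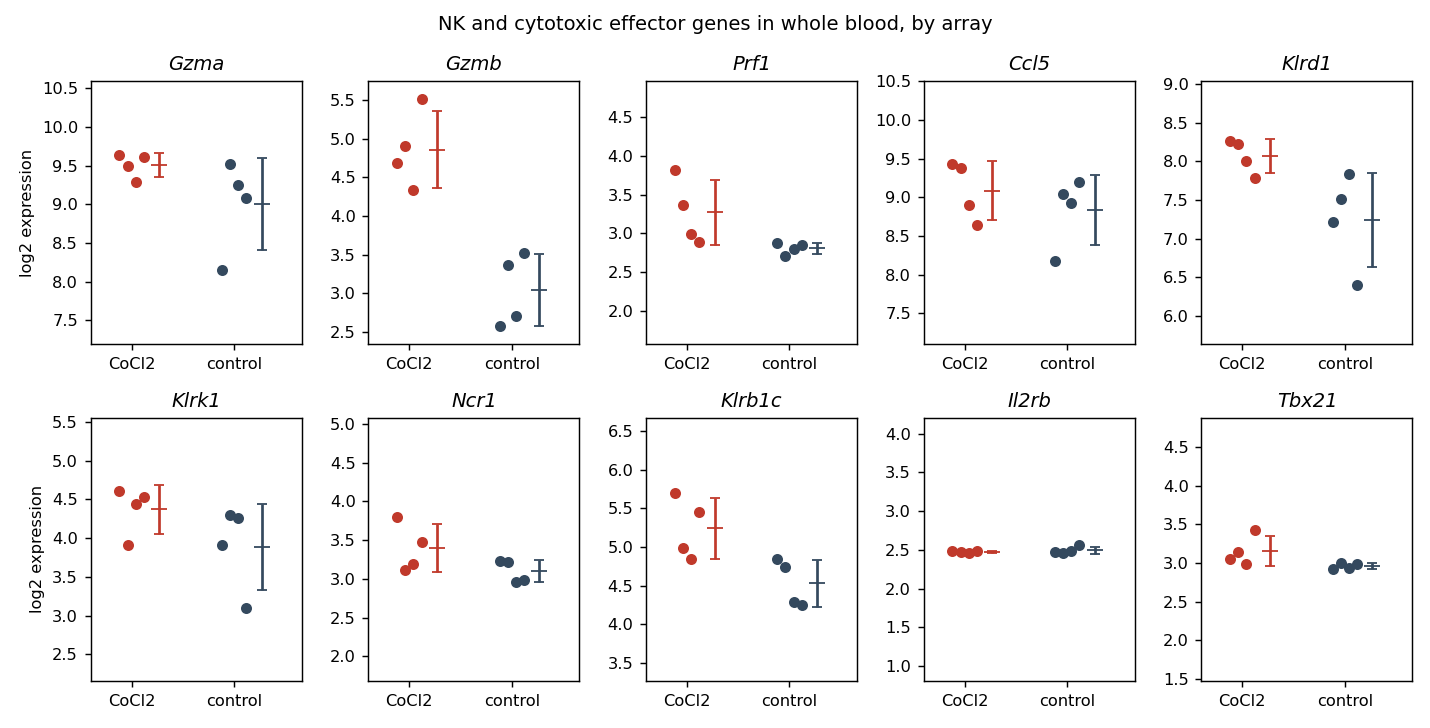
Log2 expression of the 10 genes on each array (points), with the mean and SD of each group of 4 (bar to the right of the points), CoCl2 left and control right. Every panel spans the same log2 range. The groups are apart in Gzmb (4.33 to 5.51 with CoCl2, 2.58 to 3.52 in controls) and narrowly in Prf1, and overlap in the other genes.

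Some facts of the arrays bear on all of these values. The deposited values had lost their decimal point and were read back from their digits, after which the array medians lay between 2.79 and 2.80 with CoCl2 and between 2.84 and 2.89 in controls. Bacterial control RNAs added at hybridisation, bioB and bioC, averaged 11.34 ± 0.13 on CoCl2 arrays and 13.16 ± 0.22 on control arrays (SD, n = 4 each), and their part in the results was not tested. The 3' minus 5' difference of beta-actin, which grows as RNA breaks down, was 1.68 ± 0.08 with CoCl2 and 1.88 ± 0.10 in controls, and that of Gapdh was 1.75 ± 0.19 with CoCl2 and 1.55 ± 0.12 in controls (SD, n = 4 each); their part was not tested either. The labels name no batch, and the ID numbers in the titles of the groups lie in separate ranges, which means that a batch and the treatment cannot be told apart. Markers of other blood cell types were not analysed here, because the files pair no further probe sets with genes.

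Among the granule proteins, Gzmb (probe set 1419060_at) encodes granzyme B, the protease that cleaves caspases and other proteins of the target cell. Its log2 expression was 4.68, 4.91, 4.33 and 5.51 on the CoCl2 arrays, against 2.58, 3.36, 2.71 and 3.52 on the control arrays. The 4 CoCl2 arrays all lay above the 4 control arrays. The means were 4.86 ± 0.50 with CoCl2 and 3.04 ± 0.47 in controls (SD, n = 4 each), a log2 difference of 1.82 with a standard error of 0.30 and a 95% interval of 1.14 to 2.49 (limma adjusted p = 0.0017). The control arrays lay close to the low end of the scale, where a further fall could hardly be seen, and the size of the fold change rests on that low end. Gzmb exceeded 97.4% of tested probe sets in its log2 difference. The mean of Gzmb over all arrays was 3.95. Among the 9911 probe sets tested with a mean under 4, a range at whose upper edge Gzmb lay, 15.5% were called higher. In the range of Klrb1c, a mean of 4 to 6, the share was 39.8% with a median log2 difference of 0.44, and in that of Klrd1, 6 to 8, it was 39.5% with a median of 0.43. Gzmb passed the threshold without any 1 array, with log2 differences between 1.60 and 1.99 and adjusted p-values between 0.00156 and 0.00699 in limma.

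Gzma (probe set 1417898_a_at) encodes granzyme A, a protease of the same granules that cuts after basic residues. It stood at 9.63, 9.50, 9.28 and 9.62 on the CoCl2 arrays, against 8.15, 9.51, 9.25 and 9.08 on the control arrays. The CoCl2 arrays were close together, and control replicate 1 was far below the other control arrays. Control replicate 2 lay within the CoCl2 range, and the other 3 control arrays lay below every CoCl2 array. The log2 difference of 0.51 did not pass (standard error 0.27, limma adjusted p = 0.154), and its 95% interval of -0.11 to 1.13 holds both no change and a 2-fold rise. Without control replicate 1 the log2 difference was 0.23.

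Prf1 (probe set 1451862_a_at) encodes perforin, the pore-forming protein of the granules. Its values were 3.82, 3.37, 3.00 and 2.89 on the CoCl2 arrays, against 2.87, 2.71, 2.80 and 2.86 on the control arrays. The groups did not overlap, but the lowest CoCl2 array exceeded the highest control array by little, and all control arrays lay at the level of the array medians. With a control mean of 2.81, Prf1 reached the filter at 2.90 through its CoCl2 arrays. A test behind that filter is no fair test of Prf1, so the fit without a filter is given, where the log2 difference of 0.46 did not pass (limma adjusted p = 0.156). Without CoCl2 replicate 1, the highest array, the difference was 0.28, and with each of the other arrays left out in turn it lay between 0.43 and 0.59. Gzmb and Prf1 were the 2 genes of the 10 without overlap between groups, both higher with CoCl2, as were 27.3% of all tested probe sets. After median centring the groups overlapped in Prf1.

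Granzyme B and perforin act together, so the DNA just before their transcription starts was read beside that of Gzma and of the receptor gene Klrb1c. RefSeq promoter windows (build GRCm38.p6) were at hand for 7 of the 10 genes, namely Gzma, Gzmb, Prf1, Klrk1, Ncr1, Klrb1c and Tbx21. The 250 bases before each start were searched on both strands for letters bound by factors known in cytotoxic lymphocytes or in hypoxia. The RUNX letters TGTGGT, and ACCACA where they lie on the other strand, are shown in capitals in 4 windows, each written 5′ to 3′ on the strand of its gene. They are Gzmb at chr14:56262335-56262584 (minus strand), Gzma at chr13:113100982-113101231 (minus strand), Prf1 at chr10:61297586-61297835 (plus strand) and Klrb1c at chr6:128788642-128788891 (minus strand).
Gzmb: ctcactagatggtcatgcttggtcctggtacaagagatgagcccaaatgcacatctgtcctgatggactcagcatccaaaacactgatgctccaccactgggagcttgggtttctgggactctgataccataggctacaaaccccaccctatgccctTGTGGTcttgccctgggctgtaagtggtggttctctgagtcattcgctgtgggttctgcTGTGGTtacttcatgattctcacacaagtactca
Gzma: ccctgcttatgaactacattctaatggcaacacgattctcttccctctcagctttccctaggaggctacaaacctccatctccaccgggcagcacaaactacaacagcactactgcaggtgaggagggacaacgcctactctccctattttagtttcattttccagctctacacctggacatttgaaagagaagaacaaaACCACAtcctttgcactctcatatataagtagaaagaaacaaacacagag
Prf1: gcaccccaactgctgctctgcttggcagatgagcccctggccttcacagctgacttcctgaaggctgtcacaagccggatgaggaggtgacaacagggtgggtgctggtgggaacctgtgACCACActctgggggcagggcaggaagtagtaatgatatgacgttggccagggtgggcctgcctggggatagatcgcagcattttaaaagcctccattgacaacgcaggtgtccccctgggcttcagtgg
Klrb1c: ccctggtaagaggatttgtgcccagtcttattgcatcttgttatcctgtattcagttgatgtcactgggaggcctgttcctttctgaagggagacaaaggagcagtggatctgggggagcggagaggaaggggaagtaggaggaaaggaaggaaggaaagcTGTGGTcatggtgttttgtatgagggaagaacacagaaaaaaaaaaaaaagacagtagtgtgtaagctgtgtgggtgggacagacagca

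The RUNX letters were found in 6 of the 7 genes, all but Tbx21, and in 14.0% of 32841 windows of the same length. Gzmb held 2 matches, which began 93 and 34 bases before the start, and Ncr1 also held 2. The match of Gzma began 50 bases before the start, that of Klrb1c 89, that of Klrk1 129 and that of Prf1 130. The genes with these letters include Gzmb and Klrb1c, which rose, and Gzma, Prf1, Klrk1 and Ncr1, whose differences did not pass. The core letters of hypoxia elements, ACGTG or GCGTG, were found in Klrk1 alone of the 7 genes and in 38.6% of all windows. The T-box letters GGTGTGA (3.3% of all windows), the STAT letters TTCNNNGAA (7.0%) and the ETS letters CCGGAA (12%) were found in 0 of the 7. None of the searched letter sets overlap one another in these windows. A match is a stretch of letters and was not shown to be bound here.

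Ccl5 (probe set 1418126_at) encodes a chemokine that cytotoxic cells and platelets store and release. It stood at 9.43, 9.38, 8.90 and 8.64 on the CoCl2 arrays, against 8.18, 9.05, 8.92 and 9.20 on the control arrays. The groups overlapped broadly, and control replicate 1 was again the lowest. The log2 difference was 0.25 (standard error 0.27, limma adjusted p = 0.458, 95% interval -0.35 to 0.85), and it was -0.02 after quantile normalization. Without control replicate 1 it was 0.03.

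Of the receptor genes, Klrd1 (probe set 1460245_at) encodes CD94, the partner chain of NKG2 receptors that read a non-classical class I molecule. Its log2 expression was 8.27, 8.22, 8.005 and 7.78 on the CoCl2 arrays, against 7.22, 7.51, 7.83 and 6.41 on the control arrays. CoCl2 arrays were the higher ones apart from replicate 4, which lay just under control replicate 3, and control replicate 4 was the lowest. Means were 8.07 ± 0.22 with CoCl2 and 7.24 ± 0.61 in controls (SD, n = 4 each), with a log2 difference of 0.83 (standard error 0.29, 95% interval 0.18 to 1.48, limma adjusted p = 0.0426). The call was lost in limma without CoCl2 replicate 1 (adjusted p = 0.0988), 2 (0.0944) or 3 (0.0789) and without control replicate 1 (0.086) or 2 (0.0528), with log2 differences between 0.76 and 0.92. Without control replicate 4 the difference was 0.55 and still passed (limma adjusted p = 0.0499). It was also lost after quantile normalization (0.56, adjusted p = 0.161) and median centring (0.69, adjusted p = 0.0826), in limma without a filter (adjusted p = 0.107) and in limma's treat against a change of 1.5-fold (0.596).

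Klrb1c (probe set 1449570_at) encodes an activating NK receptor that serves as the classical surface marker of mouse NK cells in strains that carry it. Its values were 5.69, 4.98, 4.84 and 5.45 on the CoCl2 arrays, against 4.84, 4.74, 4.29 and 4.25 on the control arrays. CoCl2 replicate 3 lay level with control replicate 1, and the other CoCl2 arrays exceeded every control array. The means were 5.24 ± 0.40 with CoCl2 and 4.53 ± 0.30 in controls (SD, n = 4 each), with a log2 difference of 0.71 (standard error 0.23, 95% interval 0.19 to 1.23, limma adjusted p = 0.0338). In limma the call was lost without CoCl2 replicate 1 (adjusted p = 0.0826) or 4 (0.076) and without control replicate 3 (0.0865) or 4 (0.0729), with log2 differences between 0.56 and 0.64. Quantile normalization (0.49, adjusted p = 0.112), median centring (0.57, adjusted p = 0.07) and array weights (0.55, adjusted p = 0.0741) ended it too, as did limma without a filter (adjusted p = 0.0812) and limma's treat against 1.5-fold (0.757).

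Klrk1 (probe set 1450495_a_at) encodes NKG2D, an activating receptor for stress-induced ligands, and is the direct neighbour of Klrd1 among the protein-coding genes of chromosome 6 in the RefSeq annotation. It stood at 4.61, 3.91, 4.44 and 4.53 on the CoCl2 arrays, against 3.91, 4.29, 4.26 and 3.10 on the control arrays. The groups overlapped, with CoCl2 replicate 2 and control replicate 4 apart from the rest of their groups. The log2 difference was 0.48 (standard error 0.28, 95% interval -0.16 to 1.12) and did not pass (limma adjusted p = 0.188). Without control replicate 4 it was 0.22. The digits of control replicate 3 had several readings when the decimal point was restored. With that value set missing the log2 difference was 0.61, which did not pass either (limma adjusted p = 0.135). Klrb1c lies 20 protein-coding genes away from Klrd1 in the same complex.

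Ncr1 (probe set 1422089_at) encodes NKp46, an activating receptor largely restricted to NK cells and some other innate lymphoid cells. Its values were 3.80, 3.11, 3.20 and 3.47 on the CoCl2 arrays, against 3.23, 3.21, 2.96 and 2.99 on the control arrays. CoCl2 replicates 1 and 4 exceeded every control array, while replicates 2 and 3 lay within the control range. The log2 difference was 0.30 (standard error 0.18, 95% interval -0.10 to 0.70, limma adjusted p = 0.192), at a level not far above the array medians. It was 0.16 without CoCl2 replicate 1 and also 0.16 after median centring.

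The last pair encodes a transcription factor and a receptor chain. Tbx21 (probe set 1449361_at) encodes T-bet, and it stood at 3.05, 3.14, 2.98 and 3.43 on the CoCl2 arrays, against 2.92, 2.99, 2.93 and 2.99 on the control arrays. CoCl2 replicates 1, 2 and 4 exceeded every control array by small steps, and replicate 3 lay just under control replicates 2 and 4. The log2 difference was 0.19, as large as the median of all tested probe sets, and did not pass (standard error 0.14, 95% interval -0.11 to 0.50, limma adjusted p = 0.265). It was 0.10 without CoCl2 replicate 4 and 0.06 after median centring. Il2rb (probe set 1417546_at), which encodes the interleukin-2 receptor beta chain, was at 2.48, 2.47, 2.46 and 2.48 on the CoCl2 arrays, against 2.47, 2.46, 2.48 and 2.56 on the control arrays. That is below the array medians and below the filter at a mean of 2.90, so the gene was not tested, and its level gives no information on a change.

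**Figure D2:**
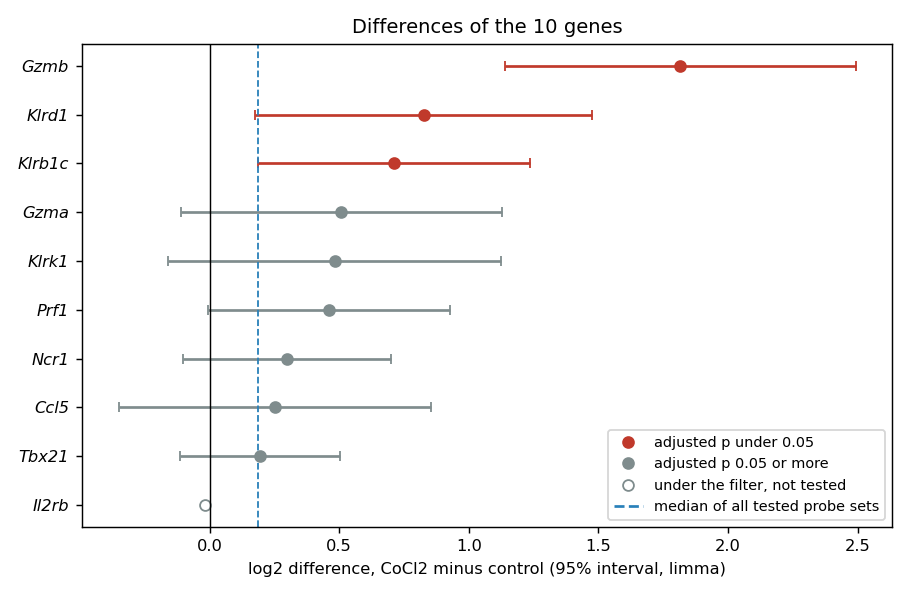
Log2 difference, CoCl2 minus control, of each gene with its 95% interval from limma, and the median of all tested probe sets (dashed, 0.19). Gzmb at 1.82 stands apart, Klrd1 and Klrb1c pass with intervals that begin at 0.18 and 0.19, and the intervals of the other tested genes include 0. The interval of Prf1 comes from the fit behind the filter, which is no fair test of that gene.

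The order of the log2 differences ran from Gzmb through Klrd1, Klrb1c, Gzma, Klrk1, Prf1, Ncr1, Ccl5 and Tbx21 to Il2rb. From Klrd1 down to Tbx21, the 95% interval of each gene included the estimate of the next in the order. To set Gzmb against the other tested genes, its log2 value was taken minus that of each other gene on the same array. The subtraction cancels a shift of the array that both genes follow. Prf1, Ncr1 and Tbx21 lay at or near the array medians, where a gene may not follow such a shift. Their pairs may therefore largely restate the difference of Gzmb itself. This comparison was added after the values were seen. Since Gzmb was singled out for its difference, the values are a description and no test is given. The excess of Gzmb was 1.31 over Gzma, 1.35 over Prf1, 1.52 over Ncr1, 1.56 over Ccl5 and 1.62 over Tbx21 on the log2 scale, without overlap between the groups. It was 1.33 over Klrk1, 1.11 over Klrb1c and 0.99 over Klrd1, and in these 3 pairs the groups overlapped. Without control replicate 4 all 8 pairs were without overlap.

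**Figure D3:**
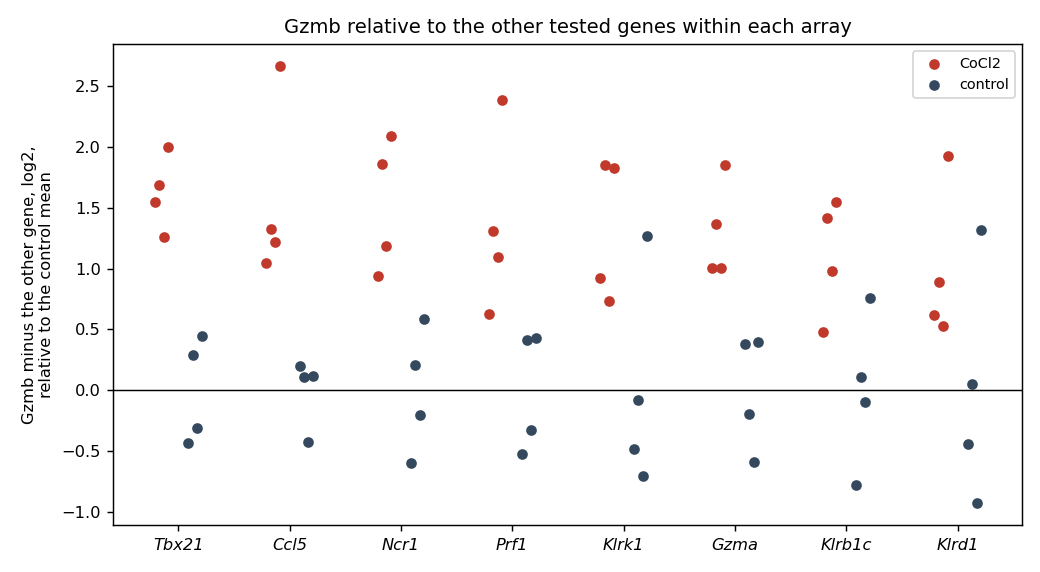
Log2 value of Gzmb minus that of each other tested gene on the same array, set to 0 at the control mean of that pair, for CoCl2 arrays (left of each pair) and control arrays (right). All CoCl2 arrays lie above all control arrays for Tbx21, Ccl5, Ncr1, Prf1 and Gzma, and the groups overlap for Klrk1, Klrb1c and Klrd1.

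How the genes moved together was read from the arrays of each group. CoCl2 replicate 1 was the highest of its group in 7 of the 10 genes, and CoCl2 replicate 3 the lowest in 5. Among control arrays, replicate 2 lay above its group's mean in 8 genes, while replicate 1 was the lowest in 4. By the root mean square difference over the 8 arrays, after subtraction of each gene's control mean, Ccl5 was most like Gzma among the other genes of the set (0.35 on the log2 scale), followed by Tbx21 (0.43) and Ncr1 (0.45). Nearest to Ncr1 were Tbx21 (0.25), Prf1 (0.27) and Il2rb (0.31), all at low levels with small differences. To Ccl5, Gzma was nearest (0.35), before Prf1 (0.35) and Il2rb (0.40). The measure favours genes that varied little, so nearness to Il2rb, which hardly varied, shows no shared movement. Gzmb was not among the 3 nearest of these genes, and its large group difference enters the measure.

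Scaling of the arrays moved the differences of all 10 genes. With quantile normalization Gzmb was 1.74 higher with CoCl2, and with median centring 1.68, while the median of all tested probe sets was 0.10 and 0.05. It was the 1 gene of the set past the threshold under both, where 22.6% of tested probe sets were called higher under each. With the bacterial RNAs bioB and bioC as the baseline of each array, the 9 tested genes were all called higher, by 2.01 (Tbx21) to 3.63 (Gzmb), and 20501 of 22519 tested probe sets (91%) were as well, with a median of 2.00. Above the median of all tested probe sets Gzmb stood 1.63 higher with that baseline, the same as with the deposited values. It could not differ, since that baseline shifts every probe set of an array alike. Il2rb, at the low end, differed by -0.02 as deposited, 0.0026 after quantile normalization, -0.16 after median centring and 1.80 with the bioB and bioC baseline.

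**Figure D4:**
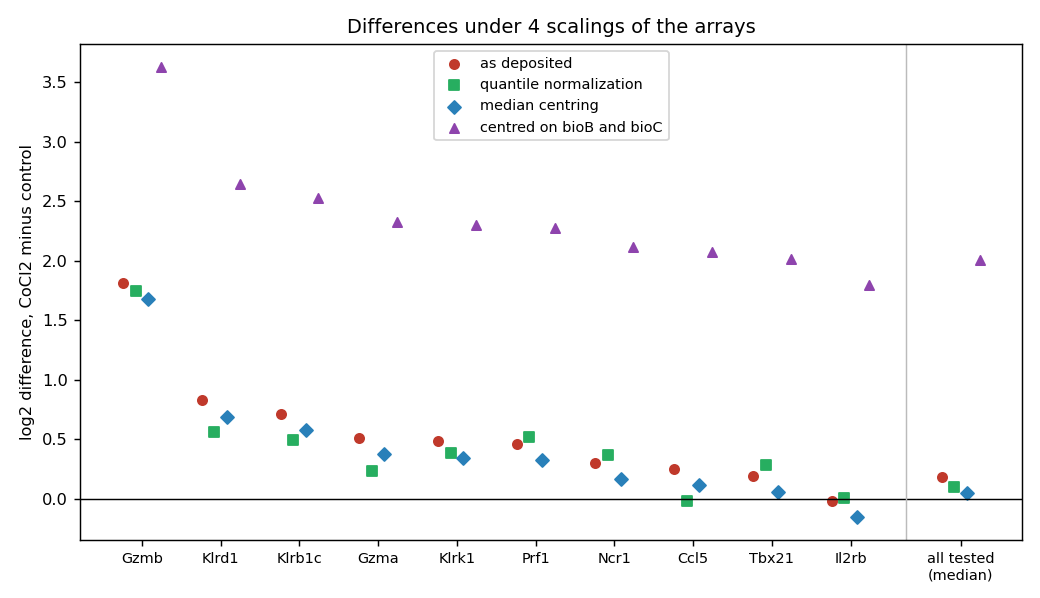
Log2 difference, CoCl2 minus control, of each gene under 4 scalings of the arrays, with the median of all tested probe sets at the right. Gzmb lies farthest above that median under each of the 4. Median centring and the bioB and bioC baseline shift every probe set of an array alike, so only quantile normalization could change the order of the genes. Ccl5 and Il2rb change sign between scalings.

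In the authors' deposited table, made with the SAM method, are 9 of the 10 genes, without Il2rb. Of these, 8 have a positive score with a q-value under 5%, as do 47.6% of the 24845 probe sets in the authors' deposited table apart from array controls. In the authors' deposited table the log2 difference of Gzmb is 1.55 with a q-value of 0.023%, the largest of the 9. That of Klrd1 is 0.86 and that of Klrb1c 0.65, each with a q-value of 0.214% in the authors' deposited table. Tbx21 has 0.67 there with a q-value of 0.042%, lower than that of Klrd1 and Klrb1c, though it did not pass in limma. The restored values gave 0.19 for Tbx21. Prf1 has 0.74 in the authors' deposited table, against 0.46 from the restored values. The authors' deposited table was therefore not computed from exactly these values. Ccl5 is the 1 listed gene over the threshold in the authors' deposited table, with a log2 difference of 0.23 and a q-value of 7.57%.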

How the data were processed

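Total RNA of whole blood was labelled with biotin, and 1 array was used for each of the 8 samples, per the labels' protocols. Per the submitters' processing notes, GCRMA and Partek were used, with no version given. Each cell of the deposited table is a score, namely a log2 value without its decimal point. It was restored from the digits without use of the groups; 1540 of 360808 cells (0.427%) had several readings and took the one closest to another array of the row whose reading was certain. Of the 80 cells used here 1 was such a cell, for Klrk1. In a simulation, restored values with small added noise were damaged by the rules assumed here and read back. The value read back was within 0.005 of the one before damage for 99.9% of all cells and 86.4% of those with several readings. Such a check shows that the reading undoes the assumed damage. It cannot reveal a wrong first reading or damage of another kind. That the values are log2 is inferred from their range. The authors' SAM table holds, per the file headers, a score, a numerator read as a log2 difference, a fold change (ratio) and a q-value; its settings and arrays are not stated there.

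The 64 AFFX controls were left out, and the upper 50% of the other 45037 probe sets by mean (22519, mean of at least 2.90) was tested with limma 3.58.1 in R 4.3.3 (lmFit, eBayes; two-sided, Benjamini-Hochberg over all tested, threshold 0.05). The planned test had assumed log2 values as deposited and ran on the restored ones. On simulated arrays of CoCl2 against control with 22519 probe sets, limma recovered 2.94% of changes of 0.5, 39.4% of changes of 1 and 84.8% of changes of 2 (log2). In that simulation 68, 66 and 66 probe sets were changed, far fewer than were called in the data. The adjustment was therefore stricter there, and the shares recovered cannot be carried over to the data. With 4 arrays a group, the median standard error of a log2 difference was 0.21, and the number of arrays sets this precision. All 10 genes are named whatever their values, with the pattern neighbours of Gzma, Ncr1 and Ccl5. Genes and lists were chosen with earlier results of these data known. Planned lists of other NK genes and cell type markers were not analysed here, for lack of a table pairing probe sets with genes, and neither was a protein comparison. Equal replicate numbers did not pair the arrays (correlations of deviations between -0.04 and 0.02). Alternatives were other filters, scalings, priors, weights, a replicate block, arrays left out, ambiguous cells missing, limma's treat and the authors' table.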

Additional observations from a re-analysis of the deposited data

How the results depend on the processing

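Gzmb stayed higher with CoCl2 and past the threshold in every alternative it entered. The count of genes past the threshold, all of them higher, was 3 and fell to 1 without a filter (10.8% of all probe sets higher), with quantile normalization and with median centring (22.6% each), and in limma's treat, which tests for changes over 1.5-fold (7.27%). It was 9 with bioB and bioC as baseline, which adds their shift to every probe set, and 8 in the authors' deposited table; why that table gives more was not tested. With 1 array left out it lay between 1 (without CoCl2 replicate 1) and 3 (without CoCl2 replicate 4). In the latter fit the 3 were Gzmb, Klrd1 and Prf1 (limma adjusted p = 0.0468 for Prf1), while Klrb1c did not pass. The filter makes that fit no fair test of Prf1. No alternative gave a gene lower with CoCl2 past the threshold; the count was 0 in each, also at an unadjusted p under 0.05 in the limma fit as planned. Genes without overlap, in either direction, numbered 2 as deposited (45.5% of all tested probe sets), 4 after quantile normalization (42.4%), 10 with bioB and bioC as baseline (90.1%), and 2 to 4 with 1 array left out (4 without CoCl2 replicate 3, where the share was 47.9%). After median centring they were Gzmb, higher, and Il2rb, lower with CoCl2 (46.1% of all tested probe sets, which do not include Il2rb). Median centring moved the log2 difference of Il2rb from -0.02 to -0.16 at the low end of the scale, so its separation gives no information on a change. The median log2 difference of the 10 genes was 2.29 with bioB and bioC as baseline and 0.34 to 0.53 with 1 array left out. The difference of Ccl5 turned to -0.021 after quantile normalization; the cause was not tested. With the replicate block 3 genes passed, as without it. The pairs in which the excess of Gzmb was without overlap numbered 5, also after quantile normalization, and 5 to 8 with 1 array left out (8 without control replicate 4). These counts are a description only, since Gzmb was singled out for its difference and its own groups were apart. The alternative over several probe sets per gene was not run. No value of the 20 groups of 4 examined lay far enough from its group to be singled out.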
